A study of Mus musculus with 9 samples.

Results

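The genes described here encode the subunits of the proteasome and its dedicated partners. They are the 45 of the 21470 genes in the expression table whose symbols are Psma, Psmb, Psmc, Psmd, Psme, Psmf or Psmg followed by a number, with the inducible subunits Psmb8 and Psmb9 left out. The symbols alone chose them. Of the 45, 16 encode the core particle, 17 the regulatory particle, and 12 other proteasome proteins: 3 assembly chaperones of the regulatory particle (Psmd5, Psmd9 and Psmd10), 4 of the core particle (Psmg1 to Psmg4), 4 other activators (Psme1 to Psme4) and the inhibitor Psmf1. A gene was tested when it reached 1 FPKM (fragments per base length of the transcript, relative to the depth of its library) in at least 3 of the 9 libraries, which 10142 genes did. Of the 45, 44 were tested. The exception, Psma8, is the alpha subunit of testis proteasomes and lay between 0.177 and 0.674 FPKM in these livers.

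The libraries were made from whole liver of mice in 3 groups of 3. The BDL+LIG mice had their bile duct ligated and were given ligustilide, a phthalide of Angelica and Ligusticum roots. The BDL mice had the ligation alone, and the sham mice are the controls of the operation. The design text states 10 mg/kg of ligustilide, whereas the titles of these libraries carry the number 20, so the dose is uncertain. Ligustilide was given only on top of the ligation, so its effect in an unligated liver was not measured. The sources used here state no strain, sex, age, route or time after surgery. Nothing in the labels says that libraries of a group come from separate mice, so the p-values below measure the spread between libraries, which may be technical.

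The proteasome is the protease that degrades proteins tagged with ubiquitin in the cytosol and nucleus. Its core particle is a barrel of alpha and beta rings with the active sites inside the beta rings, and the regulatory particle caps the barrel. A base of ATPases in that cap unfolds the substrate, and a lid removes its ubiquitin. When proteasome activity falls short, the transcription factor NFE2L1 is released from the endoplasmic reticulum membrane and activates many of these genes together; in the liver this circuit takes part in the handling of stress and cholesterol.

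Whole fragments could be recovered from the FPKM values and gave 34815899 to 40780476 fragments per library. At least 801 fragments lay behind every tested member of either particle in every library. Correlations between libraries of a group were 0.983 to 0.988 in BDL+LIG, 0.993 to 0.996 in BDL and 0.964 to 0.989 in sham, where sham 1 stood apart (0.974 and 0.964 with the other two). The tissue label was checked on hepatocyte markers, of which all 9 in the table were above 0 in every library. The summed FPKM of these markers was 43180 to 49260 in BDL+LIG, 36940 to 44070 in BDL and 53830 to 63760 in sham. Single markers did not share one direction. In BDL against sham 3 were higher and 6 lower, with log2 differences of -1.93 to 0.79 and a median of -0.06. In BDL+LIG against sham 5 were higher and 4 lower, with a median of 0.15. Markers of other cell types moved with the groups: cholangiocyte markers summed to 224 to 463 in BDL+LIG, 411 to 608 in BDL and 20 to 36.2 in sham, and macrophage markers to 291 to 606, 254 to 367 and 43.6 to 62.2 in the same groups. In bulk tissue, fewer cells of a type and less RNA per cell cannot be told apart, and the part of cell makeup in the results below was not tested.

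Levels of single subunits differed widely within each particle. FPKM is scaled to gene length, so levels can be set side by side. Among the 15 tested core members, mean levels spanned 8.07-fold in BDL+LIG, 6.9-fold in BDL and 8.05-fold in sham. Psma3, an alpha ring subunit, was lowest in each group (20.5 FPKM in BDL+LIG, 24.8 in BDL and 23.6 in sham). The structural beta ring subunits led, with Psmb4 at 165 FPKM in BDL+LIG and 171 in BDL, and Psmb3 at 189.8 in sham. Among the 17 regulatory members the highest was Psmd8 in BDL+LIG (157 FPKM) and in BDL (129.8), and Psmd4 in sham (84.9). The lid subunit Sem1, which has another name and is described below, is not among them. Its mean was 128.3 FPKM in BDL and 133.9 in sham. Adding up the members, the core particle held 1215 ± 159 FPKM in BDL+LIG, 1418 ± 37.3 in BDL and 1469 ± 233 in sham (SD, n = 3 each). The regulatory particle held 788 ± 57.0 in BDL+LIG, 818 ± 17.6 in BDL and 756 ± 50.7 in sham.

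The core particle sums of the BDL+LIG libraries were 1046, 1362 and 1238 FPKM, all below those of the BDL libraries at 1376, 1431 and 1446, while the sham libraries at 1200, 1602 and 1605 overlapped both. The mean of BDL+LIG was below that of BDL in both rings. The alpha ring sums lay wholly apart between these 2 groups, with 382 ± 50.9 in BDL+LIG, 486 ± 23.5 in BDL and 457 ± 47.2 in sham. The beta ring sums of 833 ± 108, 932 ± 14.2 and 1012 ± 225 in the same groups overlapped, between BDL+LIG and BDL through BDL+LIG 2 (932.8) above BDL 1 (915.6).

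**Figure D1:**
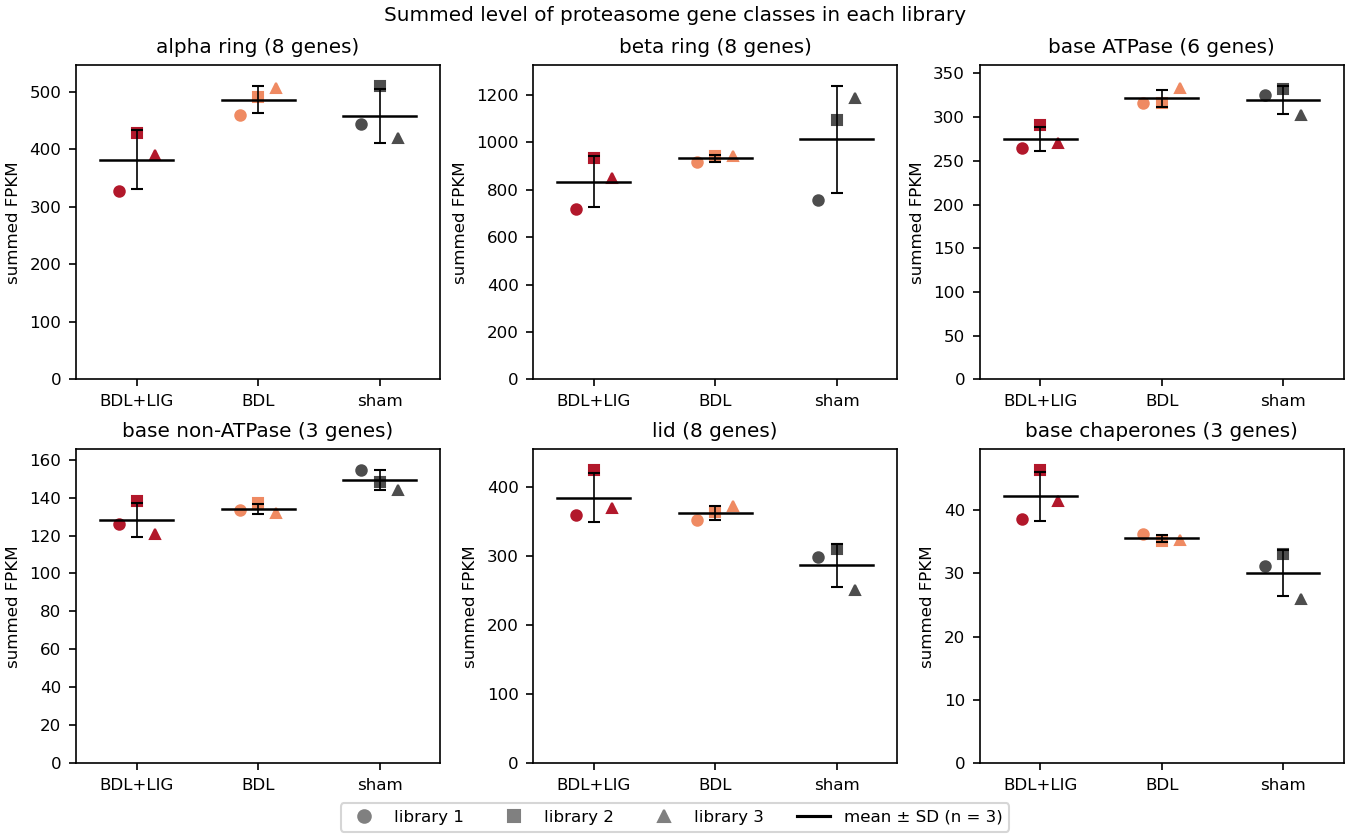
Summed FPKM (linear axis from 0) of 6 proteasome classes in each library: points are libraries 1 to 3, lines and bars the mean ± SD (n = 3) of BDL+LIG, BDL and sham. BDL+LIG lies below BDL for the alpha ring and the base ATPases, BDL lies above sham for the lid, and the base chaperones fall into 3 separate groups. Of these chaperones Psmd9 alone was lower in BDL than in sham.

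In BDL livers against sham livers, 2 of the 44 tested proteasome genes passed the test, both higher. Psmd8, the lid subunit Rpn12, rose 2.02-fold, and Psmd10, the assembly chaperone gankyrin, rose 1.81-fold. The test was limma on log2(FPKM + 1) with a Benjamini-Hochberg adjusted p under 0.05 over all genes. Among all 10142 genes tested, 29.7% passed in this comparison, 22.9% higher and 6.76% lower. In the core particle 0 of 15 passed, with 0 at an unadjusted p under 0.05 and 0 by voom on recovered fragments. In the regulatory particle 1 of 17 passed, and of the other members 1 of 12. The median log2 difference was 0.02 over core members, 0.02 over regulatory members and 0.16 over all genes. Under median-of-ratios scaling, which moved the median of all genes to -0.04, the core median was -0.24 and the regulatory median -0.23, and 4 members fell: Psmd4, Psmc5, Psmd9 and Psmg2. Under that scaling 1511 of all genes were called higher and 1435 lower.

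Psmd8 is the subunit known from yeast to join the lid last, before the lid docks on the base. It was at 138, 177 and 157 FPKM in the BDL+LIG libraries, at 132, 127 and 131 in the BDL libraries, and at 57.9, 71.1 and 63.5 in the sham libraries. Every ligated library, with or without ligustilide, was far above every sham library, and the BDL+LIG libraries were all above the BDL libraries by a smaller step. The log2 difference was 1.01 ± 0.125 (SE; 95% interval 0.73 to 1.29) for BDL against sham, with a limma adjusted p of 0.000233. It was 1.28 ± 0.125 for BDL+LIG against sham (adjusted p = 3.35e-05) and 0.27 ± 0.125 for BDL+LIG against BDL (adjusted p = 0.169). Psmd8 passed under all 24 alternative settings in BDL against sham, with a difference of 0.75 to 1.10, and under all 24 in BDL+LIG against sham.

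The stretch upstream of Psmd8 is shown because it is the member that changed most; it lies on the minus strand at chr7:29180702-29180923 of GRCm38.p6 (RefSeq) and ends 28 bases before the annotated start. Neither of the motifs searched on both strands, TGACNNNGC (the core of the antioxidant response element) and CCAAT, is in these letters.
Psmd8: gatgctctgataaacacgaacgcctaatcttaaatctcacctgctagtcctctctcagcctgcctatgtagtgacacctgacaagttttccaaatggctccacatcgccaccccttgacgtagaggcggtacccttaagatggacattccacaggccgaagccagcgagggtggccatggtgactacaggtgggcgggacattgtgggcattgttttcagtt

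Psmd8 alone set the lid's sum apart. Sem1, not a member, is left out of this sum. The 8 lid members together held 360, 425 and 369 FPKM in BDL+LIG, 352, 364 and 372 in BDL, and 298, 310.3 and 252 in sham. The BDL libraries were thus all above sham, 1.26-fold on average. Without Psmd8, a choice made after its values were seen, the lid held 227 ± 18.8 FPKM in BDL+LIG, 233 ± 11.1 in BDL and 222.5 ± 30.0 in sham (SD, n = 3 each). The groups then overlapped, at 1.05-fold for BDL over sham. The sum of the 17 regulatory members behaved likewise: BDL stood at 1.08-fold of sham with Psmd8 and at 0.995-fold without it.

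**Figure D2:**
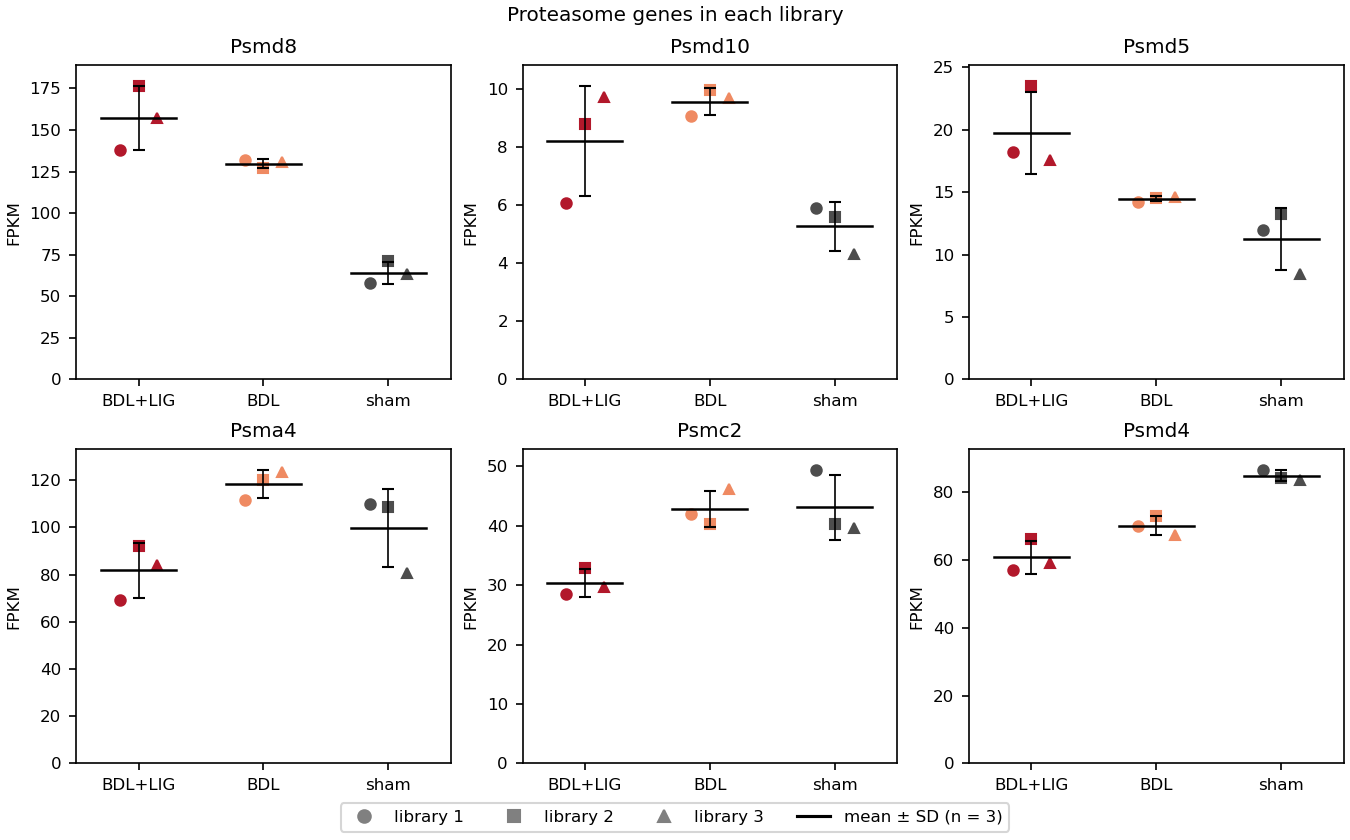
FPKM (linear axis from 0) of 6 members in each library (points) with the mean ± SD (line and bar, n = 3) of BDL+LIG, BDL and sham. Psmd8 separates the ligated from the sham libraries, Psmd10 is above sham in BDL and BDL+LIG, and Psma4 and Psmc2 are lower in BDL+LIG than in BDL in all 3 libraries.

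Psmd10 encodes gankyrin, which holds an ATPase of the base during assembly and is also known for binding the retinoblastoma protein and for its rise in liver tumours. Its FPKM was 6.07, 8.81 and 9.73 in BDL+LIG, 9.06, 9.96 and 9.68 in BDL, and 5.90, 5.59 and 4.33 in sham. All BDL and all BDL+LIG libraries were above all sham libraries, although BDL+LIG 1 was only just above sham 1. The log2 difference was 0.76 ± 0.17 (SE) for BDL against sham (limma adjusted p = 0.00761) and 0.54 for BDL+LIG against sham (adjusted p = 0.0219). In BDL against sham it passed under all 24 alternatives, with a difference of 0.54 to 0.89. CCAAT was counted over the whole 250 bases before the start, which are longer than the stretches printed here. Of 37 members with such a window in the RefSeq table, 12 hold it (32.4%), against 37.5% of 27025 genes. The Psmd10 stretch, chrX:140956729-140956906 on the minus strand of GRCm38.p6, ends 17 bases before the annotated start and holds that motif on the opposite strand at both places in capitals (ATTGG); the whole window holds 3. It is shown because Psmd10 is the other member past the test after ligation.
Psmd10: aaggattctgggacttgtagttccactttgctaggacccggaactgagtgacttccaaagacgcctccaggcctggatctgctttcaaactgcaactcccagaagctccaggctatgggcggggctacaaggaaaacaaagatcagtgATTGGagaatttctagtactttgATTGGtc

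The other assembly chaperones of the regulatory particle did not pass the test after ligation. Psmd5, which binds an ATPase of the base and was at 18.2, 23.5 and 17.6 FPKM in BDL+LIG, was at 14.3, 14.5 and 14.7 in BDL and at 12.0, 13.3 and 8.48 in sham. The 3 groups did not overlap, in the order sham, BDL, BDL+LIG. The log2 difference was 0.36 for BDL against sham (adjusted p = 0.136), 0.41 for BDL+LIG against BDL (0.121) and 0.77 ± 0.167 for BDL+LIG against sham (limma adjusted p = 0.00329), so only the last passed. The sum of the 3 chaperones was 42.2 ± 3.92 FPKM in BDL+LIG, 35.6 ± 0.563 in BDL and 30.1 ± 3.68 in sham (SD, n = 3 each), again with no overlap between groups. Psmd9 did not share this order. It was at 14.4, 14.0 and 14.1 FPKM in BDL+LIG, 12.9, 10.7 and 10.9 in BDL, and 13.2, 14.2 and 13.2 in sham. Its BDL libraries thus lay wholly below both other groups (BDL against sham -0.22, limma adjusted p = 0.161). Chaperones of the core particle had no call after ligation. Psmg2, part of a dimer that starts the alpha ring, was nearest to the threshold, at 7.36, 10.2 and 8.21 FPKM in BDL+LIG, 8.16, 8.28 and 8.29 in BDL, and 9.97, 11.3 and 11.1 in sham (BDL against sham -0.35, adjusted p = 0.0671).

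Of the remaining regulatory subunits, Psmd4 and Psmd13 (0.40, adjusted p = 0.0998) came nearest to the threshold after ligation. Psmd4 is the ubiquitin receptor Rpn10 that captures tagged substrates. It was at 57.1, 66.3 and 59.2 FPKM in BDL+LIG, 70.2, 73.0 and 67.3 in BDL, and 86.7, 84.3 and 83.8 in sham, with no overlap between any pair of groups. The log2 difference was -0.27 for BDL against sham (limma adjusted p = 0.0704), -0.20 for BDL+LIG against BDL (0.195), and -0.48 ± 0.102 for BDL+LIG against sham (0.0031). Across all 44 members, the BDL libraries lay wholly above sham for 4 and wholly below for 3, whereas 33.7% of all genes lay above and 11.3% below. Differences had both signs: 24 members were above 0 and 20 below, where 33% of all genes and 41.8% of the shortest genes (the length bin that holds 33 members, described below) were below.

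**Figure D3:**
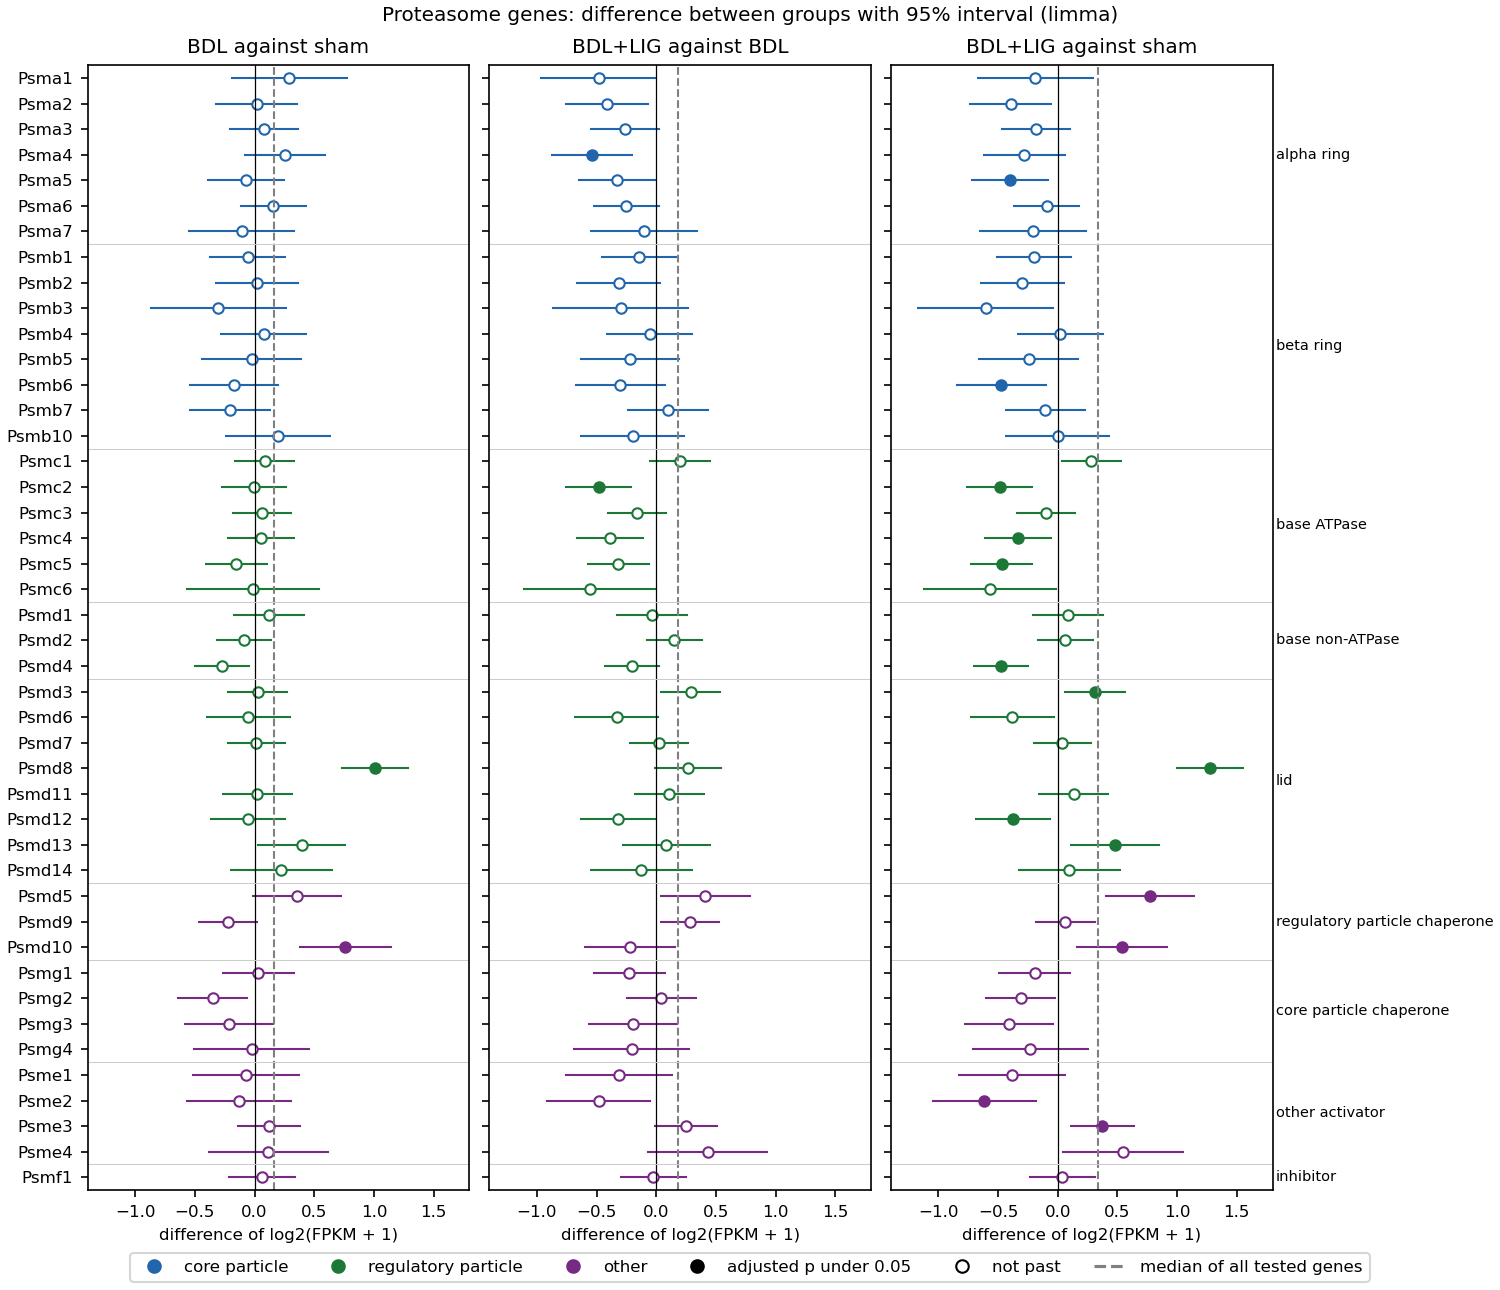
Difference of log2(FPKM + 1) with its 95% interval (limma) for the 44 tested members, down the page by class, in 3 panels for BDL against sham, BDL+LIG against BDL and BDL+LIG against sham; filled points passed the test and dashed lines mark the median of all tested genes. Psmd8 and Psmd10 are the filled points of the first panel, and 14 of 15 core particle members lie below 0 in the second.

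The active sites are in 3 beta subunits, and none of them passed the test after ligation or after ligustilide in ligated mice. Psmb5, the chymotrypsin-like site, was at 83, 107 and 97.7 FPKM in BDL+LIG, 116, 113 and 104 in BDL, and 83.1, 119.7 and 145 in sham. Psmb6, the caspase-like site, was at 88.2, 115 and 102 in BDL+LIG, 123, 122 and 129 in BDL, and 108, 155 and 167 in sham. Psmb7, the trypsin-like site, was at 97.9, 136 and 118 in BDL+LIG, 107, 108 and 111 in BDL, and 108, 149 and 122 in sham. The BDL libraries were tightly grouped for all 3, and sham 1 was the lowest sham library for each. The intervals allow changes of some size: for BDL against sham the log2 difference of Psmb5 was -0.03 with a 95% interval of -0.44 to 0.39. For Psmb6 that difference was -0.17 (adjusted p = 0.475), and for Psmb7 -0.20 (0.343). In BDL+LIG against BDL the differences were -0.22 for Psmb5 (0.439), -0.30 for Psmb6 (0.241) and 0.10 for Psmb7 (0.67).

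The antioxidant response element is the site at which NFE2L1 and its relative NFE2L2 bind, and its core lies near the start of both Psmb5 and Psmb6. Of the 37 members with a window of 250 bases, 5 hold TGACNNNGC on either strand (13.5%), against 11.5% of the 27025 genes. The core-site windows are shown 5′ to 3′ on the gene's strand, with the motif in capitals; they are RefSeq sequence of GRCm38.p6. Psmb5 is on the minus strand at chr14:54618024-54618052, Psmb6 on the plus strand at chr11:70525338-70525366 and Psmd9 on the plus strand at chr5:123228149-123228177. Psmc6 (chr14:45329587-45329615, plus strand) and Psmd12 (chr11:107479278-107479299, plus strand) hold it on the opposite strand. In Psmb6 the motif ends at the annotated start, so the letters printed after it lie past the start. A match describes the letters and is not a measured binding site.
Psmb5: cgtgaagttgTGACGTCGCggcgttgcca
Psmb6: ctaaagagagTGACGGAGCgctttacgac
Psmd9: atctagccggTGACCCCGCccacttccaa
Psmc6: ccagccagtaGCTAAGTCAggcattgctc
Psmd12: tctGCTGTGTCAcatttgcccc

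The inducible subunits of the immunoproteasome, which replace the constitutive active sites under interferon, had no call. Psmb10, the counterpart of Psmb7, was at 39.0, 40.7 and 45.3 FPKM in BDL+LIG, 45.7, 47.0 and 51.0 in BDL, and 29.2, 43.9 and 56.2 in sham. The sham libraries spanned both other groups. Psmb10 differed by 0.20 for BDL against sham (limma adjusted p = 0.49) and by -0.20 for BDL+LIG against BDL (0.508). Psmb8 and Psmb9 are not members and are given for comparison. Psmb8 was at 29.6, 39.0 and 44.4 FPKM in BDL+LIG, 31.1, 39.2 and 46.8 in BDL, and 26.2, 43.9 and 71.5 in sham. Psmb9 was at 11.4, 22.3 and 24.5 in BDL+LIG, 12.8, 15.5 and 18.4 in BDL, and 12.7, 23.1 and 37.6 in sham. In sham, all 3 inducible genes were lowest in library 1 and highest in library 3. The beta ring as a whole shared the low library: sham 1 was the lowest sham library for 8 of the 8 members, Psmb10 among them. In contrast, sham 3 was the lowest for 6 of the 7 tested alpha ring members and for 14 of the 17 regulatory members.

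Members of a class varied together between sham libraries, and their spread limits what could be seen after ligation. The median SD of log2(FPKM + 1) over core members was 0.191 in BDL+LIG, 0.068 in BDL and 0.301 in sham, where all tested genes had 0.147, 0.098 and 0.246. Regulatory members had 0.123 in BDL+LIG, 0.062 in BDL and 0.175 in sham. The ratio of the core sum to the regulatory sum was 1.39, 1.59 and 1.63 in BDL+LIG, 1.72, 1.75 and 1.73 in BDL, and 1.54, 2.03 and 2.30 in sham. The BDL libraries were nearly identical in it and the sham libraries overlapped both other groups. The ratio of the alpha to the beta ring sum was 0.456, 0.460 and 0.459 in BDL+LIG, 0.502, 0.522 and 0.538 in BDL, and 0.585, 0.467 and 0.353 in sham, so that BDL+LIG lay wholly below BDL with sham on both sides.

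After ligustilide, BDL+LIG livers had lower values than BDL livers for most core particle genes, but few passed the test. Psma4, an alpha ring subunit, fell to 0.691-fold, and Psmc2, the base ATPase Rpt1, fell to 0.709-fold. These were the 2 members of 44 past the threshold, 1 of 15 core and 1 of 17 regulatory subunits, both lower. Of all genes, 11.8% passed, 9.98% higher and 1.79% lower. Of the 12 other members 0 passed, with 3 at an unadjusted p under 0.05 and 0 by voom. The spread behind these tests came from all groups, sham included. With the 2 compared groups alone, 9 more members passed. Psma2, Psmb2, Psmc4, Psmc5, Psmd12 and Psme2 were lower, and Psmd3, Psmd5 and Psmd9 higher. Of all genes, 2828 were then higher and 605 lower. This comparison shares the BDL libraries with the one above, so their values are not independent. Marker sums of 5 other cell types lay wholly apart between the 2 groups. Endothelial markers summed to 46.2 to 66.8 FPKM in BDL+LIG and 26.9 to 29.4 in BDL, and 6 of 6 tested rose (median log2 difference 0.89). Markers of B and plasma cells (5.29 to 8.48 in BDL+LIG, 2.0 to 2.35 in BDL) and of T and NK cells (3.13 to 13.6, against 1.82 to 2.59) were also higher in BDL+LIG, with 1 of each list tested and 1 and 0 past the threshold. Neutrophil markers (14.2 to 36.9 in BDL+LIG, 40.9 to 45.0 in BDL) and erythroid markers (157 to 333, against 363 to 448) were lower, with 1 of 3 and 1 of 4 tested past it. Their part in the values below was not tested.

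Psma4 was at 69.3, 92.3 and 84.0 FPKM in BDL+LIG, 112, 120.1 and 124 in BDL, and 110.1, 109 and 80.7 in sham. All BDL+LIG libraries were below all BDL libraries, and sham 3 fell among the BDL+LIG libraries. The log2 difference from BDL was -0.54 ± 0.152 (SE; limma adjusted p = 0.047). The call is a narrow one: Psma4 passed under 7 of 24 alternatives, with adjusted p from 0.0119 to 0.149, and was lost without any 1 of the 6 compared libraries (differences of -0.42 without BDL+LIG 1 to -0.63 without BDL+LIG 2) and without sham 2. Its exons overlap AY074887 on the opposite strand, and since the strand setting of the counting is not given, reads of the 2 genes cannot be told apart.

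Psmc2 was at 28.5, 33.0 and 29.7 FPKM in BDL+LIG, 42.1, 40.3 and 46.1 in BDL, and 49.5, 40.3 and 39.6 in sham. The BDL+LIG libraries were below every library of the other groups. The log2 difference was -0.48 ± 0.122 from BDL (limma adjusted p = 0.0337) and -0.49 from sham (0.00725). Against BDL it passed under 14 of 24 alternatives (adjusted p 0.00694 to 0.127) and was lost without any 1 of the 6 compared libraries, with differences of -0.43 without BDL 3 to -0.54 without BDL+LIG 2. Of the other base ATPases, only Psmc1 was above 0 against BDL. Psmc3 (-0.16, adjusted p = 0.327), Psmc4, Psmc5 and Psmc6 (-0.56, 0.155) were below 0 and did not pass. Psmc4 was at 55.0, 61.2 and 57.2 FPKM in BDL+LIG, 76.8, 75.6 and 75.1 in BDL, and 61.3, 78.8 and 81.1 in sham (-0.39 against BDL, adjusted p = 0.0656). Psmc5 was at 37.3, 42.7 and 35.4 in BDL+LIG, 47.2, 45.0 and 52.1 in BDL, and 54.8, 56.3 and 49.5 in sham (-0.32, 0.0916). Psmc1 differed by 0.20 (0.251). The summed ATPases held 275 ± 13.7 FPKM in BDL+LIG, 322 ± 9.66 in BDL and 320 ± 15.9 in sham (SD, n = 3 each), and the BDL+LIG libraries did not overlap either other group.

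The direction of the core particle was shared by nearly all its members, whichever side of the test they fell on. The difference from BDL was below 0 for 14 of the 15 core members with a median of -0.26 (alpha ring 7 of 7, median -0.33; beta ring 7 of 8, median -0.21), and Psmb7 was the one above 0. Psmb7 overlaps Nek6 on the opposite strand and carries the limit given for Psma4. Among all tested genes 29.6% were below 0 and the median was 0.18. For 9 of 15 core members all BDL+LIG libraries lay below all BDL libraries, and for none above, against 10.5% of all genes below and 40.7% above. In the regulatory particle 10 of 17 members were below 0 (median -0.13), with 7 wholly below and 3 wholly above BDL. Within it the base ATPases had a median of -0.35, the other base members -0.03 and the 8 lid members, without Sem1, 0.05. BDL+LIG 1 was the lowest of its group for 15 of 15 core members and BDL+LIG 2 the highest for 13 of 15, so the members do not vary independently between libraries. BDL 1 was the lowest BDL library for 13 of 15, and in sham library 1 was lowest for 9 and library 3 for 6. Whether libraries of the same number share a batch is not stated in the labels.

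Gene length moved with these differences. Core members are short, with a median of 1103 bases, against 1600 for the regulatory particle and 3189 for all tested genes, and 33 of the 44 members are among the 2537 shortest genes when the tested genes are cut into 4 equal bins by length (105 to 1917 bases). For BDL+LIG against BDL, the median log2 difference was -0.09 in that bin, with 60.5% below 0 and 26.8% with libraries wholly below, and 0.34 in the bin of the longest genes, with 8.95% below 0 and 2.45% wholly below. With the length trend removed from each library, the core median was -0.14, the regulatory median -0.16, Psmc2 passed (-0.53, adjusted p = 0.0272) and Psma4 did not (-0.46, 0.107). In BDL against sham the medians of the shortest and longest bins were closer, at 0.08 and 0.15. What makes the length trend was not tested.

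**Figure D4:**
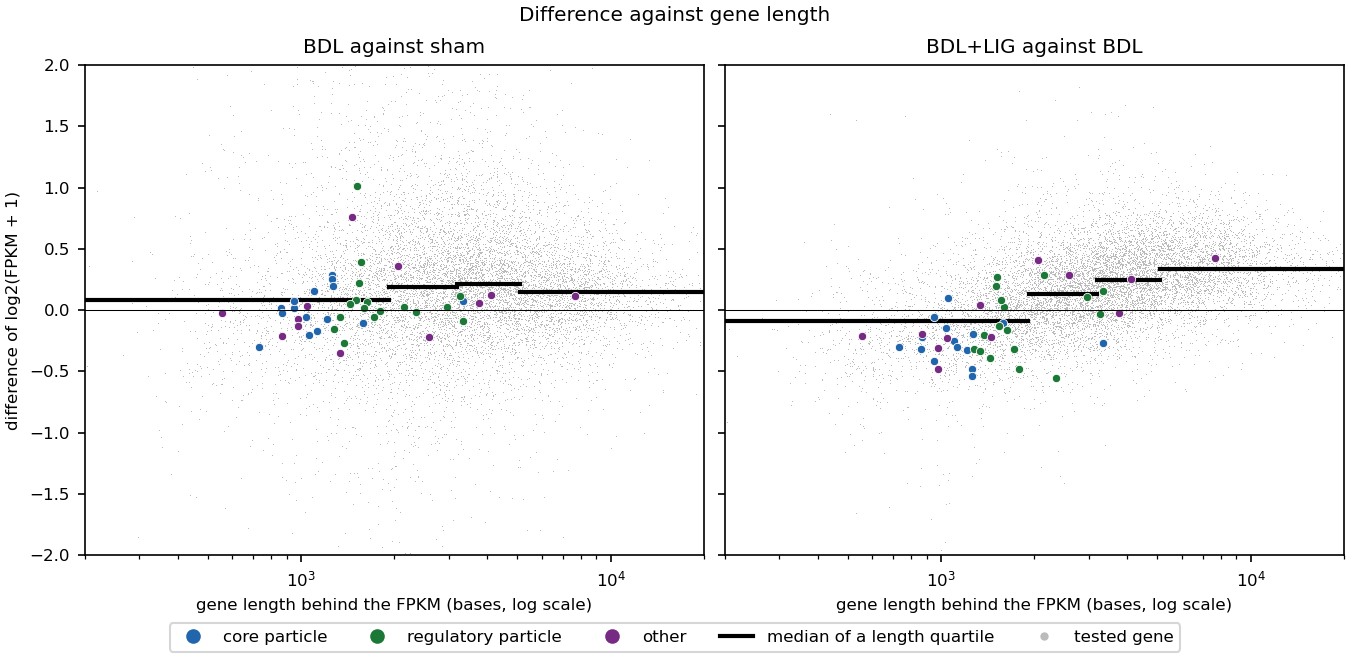
Difference of log2(FPKM + 1) by gene length (bases, log axis) in 2 panels, BDL against sham and BDL+LIG against BDL; grey points are tested genes, black lines the medians of 4 length bins, and coloured points the core, regulatory and other proteasome members. In the second panel the bin medians run from -0.09 for the shortest genes to 0.34 for the longest, and 33 of the 44 members are in the shortest bin.

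The scale of the libraries also set part of the size. Median-of-ratios scaling put the median of all genes in BDL+LIG against BDL at 0 and TPM at 0.33, against 0.18 as deposited. The core median was -0.47 and -0.12 under these, -0.26 under quantile normalization and -0.14 when libraries were brought to one total with the 20 most abundant genes set aside, so it stayed below 0 in each. The regulatory median did not keep its sign: it was -0.34 under median-of-ratios scaling, 0.02 under TPM and 0 under that common total, and under these last 2 scalings its 1 call was Psmd8, higher (0.42 with adjusted p = 0.0411 under TPM). Of all genes called in this comparison, 84.8% were higher as deposited, 48.6% under median-of-ratios scaling, 52% under quantile normalization, 48.9% with the length trend removed and 95.2% under TPM.

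Members outside the particles did not move as one in BDL+LIG against BDL. Psme1 and Psme2 form the activator ring that interferon induces and that opens the core without ubiquitin. Psme1 was at 112, 152 and 136 FPKM in BDL+LIG, 167, 164 and 163 in BDL, and 128, 173 and 234 in sham (-0.31 against BDL, adjusted p = 0.302). Psme2 was at 51.6, 60.4 and 67.6 in BDL+LIG, 81.2, 84.8 and 84.7 in BDL, and 66.5, 94.2 and 123 in sham (-0.48, 0.121). For both, BDL+LIG lay wholly below BDL and sham overlapped both. Psme1 overlaps Emc9 on the opposite strand, with the same limit as Psma4. Psme2 has a near-identical copy in the table, Psme2b, so its reads may be split; Psme2b was at 16.6, 21.3 and 23.8 FPKM in BDL+LIG, 25.8, 24.9 and 23.6 in BDL, and 16.3, 26.4 and 30.4 in sham.

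Psme3, the nuclear activator, was at 14.7, 17.0 and 13.7 FPKM in BDL+LIG, 12.4, 12.3 and 12.8 in BDL, and 11.4, 10.4 and 12.4 in sham (0.25 against BDL, adjusted p = 0.173). Psme4, an activator known from sperm and DNA repair, was at 9.81, 12.2 and 7.91 in BDL+LIG, 6.18, 7.03 and 8.02 in BDL, and 9.02, 6.62 and 4.35 in sham (0.43, 0.215). These 2 had higher means in BDL+LIG than in BDL, the opposite side to Psme1 and Psme2, and they are also the longest of the 4. Psmf1, an inhibitor of the core in the test tube, was at 8.18, 10.4 and 8.92 in BDL+LIG, 9.25, 9.77 and 8.90 in BDL, and 8.69, 8.28 and 9.69 in sham, with all groups overlapping. Psmd14, the deubiquitinase of the lid, was at 20.1, 26.7 and 20.1 in BDL+LIG, 22.6, 23.7 and 26.6 in BDL, and 23.6, 24.8 and 14.9 in sham (-0.13 against BDL, 0.672).

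In BDL+LIG livers against sham livers, 14 of the 44 members passed, 6 higher and 8 lower, where 52.6% of all genes passed, 43.7% higher and 8.92% lower. Psmd8, Psmd10 and Psmd5, described above, were among the higher ones with Psmd13, Psmd3 and Psme3. The lower ones were Psma5 and Psmb6 of the core, Psmc2, Psmc4, Psmc5, Psmd4 and Psmd12 of the regulatory particle, and Psme2. This makes 0 higher and 2 lower of 15 core members, 3 and 5 of 17 regulatory members, and 3 and 1 of 12 others. The comparison shares libraries with both others and adds no independent replicate.

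Psma5, an alpha ring subunit, was at 24.9, 32.1 and 29.5 FPKM in BDL+LIG, 34.0, 39.0 and 36.2 in BDL, and 35.3, 46.2 and 34.3 in sham. BDL+LIG lay wholly below sham, with a log2 difference of -0.40 ± 0.144 (SE; limma adjusted p = 0.0376). Psmb6 differed by -0.47 ± 0.168 (0.0356), with overlapping libraries. Psmc5 differed by -0.47 (0.00653) with BDL+LIG wholly below sham. Psmc4 differed by -0.34 (0.0419) and lay below sham only narrowly, with BDL+LIG 2 at 61.21 FPKM and sham 1 at 61.29. The lid subunits split. Psmd13 was at 45.8, 46.6 and 39.5 in BDL+LIG, 38.1, 42.2 and 43.9 in BDL, and 27.5, 41.5 and 26.6 in sham (0.48 ± 0.165, 0.0319), overlapping through sham 2. Psmd3 was at 37.7, 43.4 and 36.4 in BDL+LIG, 31.4, 32.7 and 31.3 in BDL, and 33.5, 32.1 and 28.3 in sham (0.31 ± 0.113, 0.0378), with BDL+LIG above all others. Psmd12 was at 30.0, 32.8 and 30.6 in BDL+LIG, 36.9, 38.9 and 41.7 in BDL, and 47.9, 42.6 and 32.9 in sham (-0.38, 0.0429), with BDL+LIG below all others. For Psmd12, BDL+LIG 2 at 32.82 FPKM was only just below sham 3 at 32.87. Psmd13 overlaps Sirt3 on the opposite strand and carries the limit given for Psma4. The same limit holds for Psma5, which overlaps 1700010K24Rik, and for Psmd3, which overlaps Gm12356, though neither overlapping gene is in the expression table. Psmc3 (with Slc39a13), Psmd1 (with Htr2b) and Psmd9 (with Gm26745) carry it too. For the 2 activators called, Psme3 differed by 0.37 (0.0226) and Psme2 by -0.62 ± 0.196 (0.0227).

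The calls of this last comparison depended on scaling: the median of all genes was 0.34 as deposited, -0.04 under median-of-ratios scaling and 0.59 under TPM. Under median-of-ratios scaling 13 of 15 core members were called, all lower, with 12 regulatory members lower and 1, Psmd8, higher. Under that scaling 2295 of all genes were called higher and 2485 lower. Under TPM 0 core members and 5 regulatory members were called, all 5 higher, where 6292 of all genes were higher and 558 lower. The core median under TPM was 0.03, above 0, against -0.21 as deposited. Of all genes called, 83% were higher as deposited, 48% under median-of-ratios scaling and 50.3% under quantile normalization; in BDL against sham these shares were 77.2%, 51.3% and 51.9%. With 24 alternatives each, Psmd8 passed under all, Psmc2, Psmc5 and Psmd4 under 23 (all but TPM) and Psmd5 under 22. The other 9 calls were less stable: Psmd10, Psme2 and Psme3 passed under 17, Psma5 under 14, Psmd13 under 13, Psmb6 under 12, Psmc4 and Psmd3 under 11 and Psmd12 under 10. Leaving out 1 library ended the call of Psme3 (0.29 without BDL+LIG 2, 0.31 without sham 2), of Psmd10 (0.48 without BDL+LIG 2, 0.42 without BDL+LIG 3, 0.43 without sham 3) and of Psme2 (-0.51 without BDL+LIG 1, -0.63 without BDL+LIG 2, -0.59 without sham 2, -0.41 without sham 3). Psmd13 lost it without BDL+LIG 1, BDL+LIG 2, BDL 2, sham 1 or sham 3 (0.37 to 0.48). Psma5 (-0.42 to -0.27), Psmb6 (-0.48 to -0.35), Psmc4 (-0.38 to -0.26), Psmd3 (0.24 to 0.34) and Psmd12 (-0.41 to -0.26) each lost it without any 1 of the BDL libraries, without BDL+LIG 1 or without sham 2. It was also lost without BDL+LIG 2 (Psmc4, Psmd3, Psmd12), BDL+LIG 3 (Psma5, Psmb6, Psmc4, Psmd12), sham 1 (Psmd12) and sham 3 (Psmb6, Psmc4, Psmd3). The BDL+LIG libraries lay wholly above sham for 6 of the 44 members and wholly below for 7, against 45.7% and 9.71% of all genes. Differences were below 0 for 14 of 15 core members, against 26.4% of all genes and 50.8% of those in the shortest length bin, where 21.5% lay wholly below.

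The pathway that acts on these genes was followed with a list of 12 genes for NFE2L1, its processing and its partners. With ligustilide, in BDL+LIG against BDL, 4 of the 12 rose and 0 fell, against 9.98% of all genes higher and 1.79% lower. The list's median was 0.42, against 0.18 for all genes. Under median-of-ratios scaling the list's median was 0.21, and 1 rose and 1 fell, where 325 of all genes were called higher and 344 lower. Nfe2l1 itself was at 23.9, 22.0 and 21.4 FPKM in BDL+LIG, 14.9, 15.8 and 16.0 in BDL, and 12.2, 11.5 and 14.6 in sham. The BDL+LIG libraries were above all others, with a log2 difference of 0.50 from BDL (limma adjusted p = 0.0269; past the threshold under 14 of 24 alternatives) and 0.78 from sham (0.000402). Nploc4, an adaptor of the extraction machinery that pulls NFE2L1 from the membrane, was at 16.2, 19.9 and 16.7 in BDL+LIG, 8.93, 9.59 and 10.5 in BDL, and 12.2, 9.66 and 9.37 in sham (0.80, 0.013). Mafk, a small partner on DNA, was at 3.58, 3.85 and 3.91 in BDL+LIG, 2.20, 2.18 and 2.02 in BDL, and 1.31, 1.62 and 1.52 in sham (0.61, 0.0158). The call of Nfe2l1 ended without any 1 of the 6 compared libraries (0.46 to 0.53), that of Nploc4 without any 1 of the BDL libraries (0.75 to 0.86), and that of Mafk without any 1 of the compared libraries but BDL+LIG 1 (0.58 to 0.62). Removing the length trend left 0.19 for Nfe2l1 (adjusted p = 0.483) and 0.255 for Mafk (0.384), median-of-ratios scaling 0.29 (0.226) and 0.43 (0.0616), and quantile normalization 0.40 (0.0668) and 0.36 (0.11). Against sham, Nfe2l1 did not pass under the first 2 of these either (0.26 with 0.186, and 0.32 with 0.0922).

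Ddi2, the protease that cleaves NFE2L1 into its active form, was the fourth gene of the list to rise, and is named after its values were seen. It was at 8.99, 9.16 and 6.96 FPKM in BDL+LIG, 2.17, 2.08 and 1.91 in BDL, and 5.04, 1.60 and 0.469 in sham, a log2 difference of 1.61 from BDL (adjusted p = 0.0306; lost without any 1 of the 6 compared libraries, at 1.55 to 1.72). The sham libraries differed widely for this gene, with sham 1 the highest, and all BDL+LIG libraries were above all others. In BDL against sham, 1 of the 12 rose, the relative Nfe2l2, and 0 fell, below the 22.9% of all genes that were higher. Nfe2l2, the regulator of the antioxidant response, was at 45.7, 50.5 and 44.0 in BDL+LIG, 34.2, 38.7 and 40.2 in BDL, and 26.7, 12.3 and 8.20 in sham. Both ligated groups were above sham (1.36 for BDL against sham, 0.00821), and BDL+LIG lay wholly above BDL without passing (0.30, 0.522). For Nfe2l1 the size, and with it the call, thus depended on scaling and on the length trend. These are levels of RNA, and neither NFE2L1 protein nor proteasome activity was measured.

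**Figure D5:**
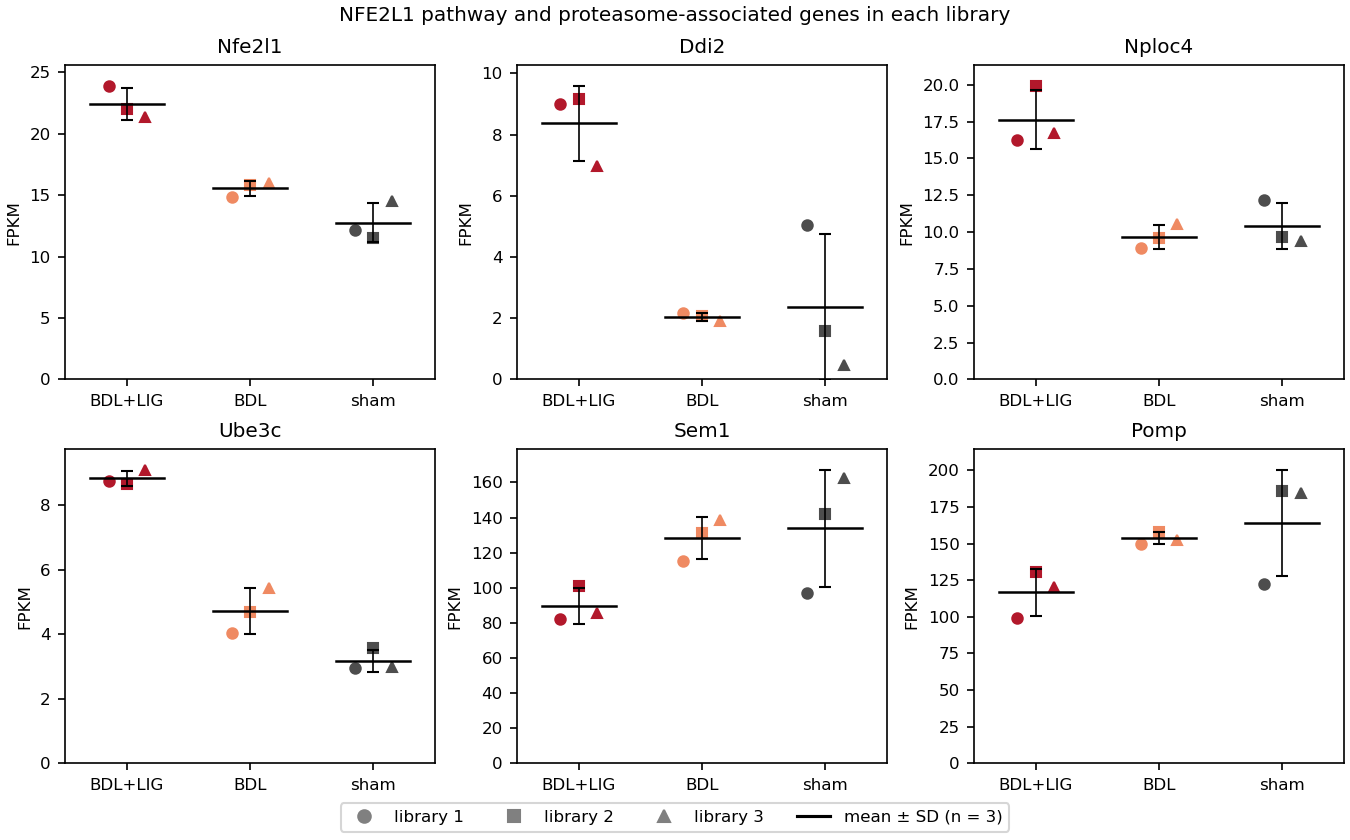
FPKM (linear axis from 0) in each library (points) with the mean ± SD (line and bar, n = 3) for Nfe2l1, Ddi2, Nploc4, Ube3c, Sem1 and Pomp in BDL+LIG, BDL and sham. The first 4 genes are highest in BDL+LIG, and Sem1 and Pomp are lower there than in BDL in all 3 libraries.

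Of 17 tested genes for proteins that associate with the proteasome but have other names, 2 rose and 0 fell in BDL+LIG against BDL (2 and 1 under median-of-ratios scaling), and 3 rose and 0 fell in BDL against sham (2 and 1). Of all genes 9.98% were higher in the first of these comparisons and 22.9% in the second, so the first count is near the share of all genes and the second below it. Under median-of-ratios scaling 325 of all genes were higher and 344 lower in the first, and 1511 higher and 1435 lower in the second. Ube3c, a ubiquitin ligase that works on the proteasome, was at 8.74, 8.65 and 9.11 FPKM in BDL+LIG, 4.04, 4.69 and 5.45 in BDL, and 2.97, 3.58 and 3.00 in sham. The 3 groups did not overlap, and both steps passed (0.79 from BDL, adjusted p = 0.0128; 0.45 for BDL against sham, 0.0264). Zfand2a, a heat shock induced partner of the regulatory particle, was at 4.11, 4.75 and 5.70 in BDL+LIG, 2.26, 2.90 and 2.75 in BDL, and 1.66, 1.19 and 1.29 in sham (0.68 and 0.61, with 0.0223 and 0.0111). Ubqln2, a shuttle that carries tagged proteins, was at 7.95, 7.93 and 8.67 in BDL+LIG, 6.27, 5.70 and 5.52 in BDL, and 4.66, 2.53 and 1.4 in sham (0.91 for BDL against sham, 0.0202). Against BDL, Ube3c lost its call without BDL 1 (0.70) or BDL 2 (0.79) and Zfand2a without any 1 of the compared libraries but BDL+LIG 1 (0.58 to 0.73). Between BDL and sham, Ube3c lost it without BDL 2, BDL 3 or sham 3 (0.36 to 0.45), Zfand2a without BDL 2 (0.56), and Ubqln2 without sham 2 or any 1 of the BDL libraries (0.86 to 0.94). With the length trend removed, Ube3c was at 0.48 from BDL (adjusted p = 0.0856) and at 0.24 for BDL against sham (0.247), both short of the threshold.

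Sem1 and Pomp are proteasome proteins by function, a small lid subunit and the factor that matures the core, and were picked from this list after their values were seen. Sem1 was at 82.2, 101 and 85.9 FPKM in BDL+LIG, 115, 131 and 139 in BDL, and 97.2, 142 and 162 in sham. Pomp was at 99.2, 130.5 and 121 in BDL+LIG, 149.9, 158 and 153 in BDL, and 122, 186 and 185 in sham. For both, every BDL+LIG library was below every BDL library, on the side of the core subunits, but the differences of -0.51 for Sem1 (limma adjusted p = 0.0864) and -0.40 for Pomp (0.141) did not pass; against sham they did (-0.55 with 0.0281 and -0.47 with 0.0404). The call against sham ended for Sem1 without BDL+LIG 1, BDL+LIG 3, sham 2 or sham 3 (-0.52 to -0.39) and for Pomp without any 1 library but BDL+LIG 2 or sham 1 (-0.50 to -0.36).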

How the data were processed

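Liver RNA of 9 libraries, 3 each for BDL+LIG, BDL and sham, was analysed; groups and replicate numbers come from the sample titles. The authors deposited FPKM values in 1 table of 21470 genes. The submitters' processing notes name fastp, HISAT2 2.1.0, DESeq2 and the build GRCm39; for the counting program, its strand setting and the annotation nothing is stated there (not given in the sources used here).

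Values were taken as log2(FPKM + 1), and genes that reached 1 FPKM in 3 or more libraries entered limma 3.58.1 (lmFit and eBayes with trend, all 9 libraries in 1 fit, R 4.3.3), with Benjamini-Hochberg adjustment over 10142 genes and a threshold of 0.05. Differences are on this scale and understate those of low genes. Since FPKM are not counts, voom served as an alternative on whole fragments, which could be recovered for 19373 of 19449 genes (99.61%, within 0.02 fragments). Tables and figures were made with Python 3.11.15, pandas 2.3.3, numpy 2.4.6, scipy 1.17.1 and matplotlib 3.10.9. The procedure was tested on simulated data. Promoter sequences are RefSeq's, of GRCm38.p6, and 8 members have no entry. The Psmd8 and Psmd10 stretches were trimmed of annotated exons, and the core-site windows were not.

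Members and lists were chosen with earlier results of these data known. Values in every library are given for the 3 called members with the largest rise and fall per class and comparison, catalytic and inducible subunits, activators, Psmf1, Psmd4, Psmd14 and up to 3 genes of each list with the smallest p; others named are near the threshold. The values of 1 listed gene are not reported here. Replicate numbers were not used as pairs, and the labels do not say whether they mark one. Correlations of deviations from the group means ran from -0.13 to 0.28 between same-numbered libraries and from -0.3 to 0.14 between others. The highest were of BDL+LIG 1 with sham 1 (0.25) and BDL+LIG 3 with sham 3 (0.28). Alternatives are another pseudocount (0.1 or 0.5), no filter or a mean of at least 5 FPKM, 4 scalings, other eBayes settings, the 2 compared groups alone, a replicate block, voom, a length trend (loess, span 0.4) and each library left out.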

Additional observations from a re-analysis of the deposited data

How the results depend on the processing

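Counts of called members are given for the core particle, the regulatory particle, the other members and all genes; every count not listed was within 1.5 times its value in the report. In BDL against sham (0, 1, 1 and 3008), the regulatory count was 2 without a filter, 3 under median-of-ratios scaling, 2 with the length trend removed and 3 under voom with median-of-ratios scaling, an alternative added after seeing the data. The other members gave 3 under median-of-ratios scaling, quantile normalization, length trend removal and voom with median-of-ratios scaling, and all genes 1838 with a mean of at least 5 FPKM. In BDL+LIG against BDL (1, 1, 0 and 1194), the core count was 0 under both pseudocounts, no filter, the mean of 5 FPKM, TPM, the common total, robust eBayes, eBayes without trend, the replicate block and length trend removal, 2 under median-of-ratios scaling, and 3 with the 2 groups alone and under voom with median-of-ratios scaling. The regulatory count was 0 without a filter and with the block, 5 under median-of-ratios scaling, 3 under quantile normalization, 5 with the 2 groups alone and 7 under voom with median-of-ratios scaling. The other members gave 1 under TPM and the common total and 3 with the 2 groups alone. All genes gave 623 without a filter, 575 with the mean of 5 FPKM, 669 under median-of-ratios scaling, 2056 under TPM, 2001 under the common total, 3433 with the 2 groups alone, 742 with the block and 497 with the length trend removed. In BDL+LIG against sham (2, 8, 4 and 5335), the core count was 0 without a filter, under TPM, the common total and the 2 groups alone, 13 under median-of-ratios scaling with and without voom, and 4 with the block. The regulatory count was 5 without a filter, under TPM and without trend, 13 under median-of-ratios scaling with and without voom, and 4 with the 2 groups alone. The other members gave 7 under median-of-ratios scaling with and without voom and 1 with the 2 groups alone, and all genes 2765 with the mean of 5 FPKM. The causes were not tested. Fewer genes are tested under the higher mean. With the 2 groups alone fewer libraries enter, and those of the group left out no longer add to the shared spread. The median SD of log2(FPKM + 1) over all tested genes was 0.147 in BDL+LIG, 0.098 in BDL and 0.246 in sham.

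Leaving out 1 library gave, in BDL against sham, 0 to 2 core, 1 to 2 regulatory and 1 to 3 other members and 1883 to 4628 of all genes, with the highest all-gene count without sham 1. In BDL+LIG against BDL it gave 0 to 2 core, 0 to 4 regulatory and 0 to 1 other members and 0 to 3137 of all genes: 0 without BDL 2, 40 without BDL 1, 68 without BDL 3 and 3137 without sham 1. In BDL+LIG against sham it gave 0 to 7 core, 4 to 8 regulatory and 2 to 9 other members and 4332 to 6859 of all genes. The labels do not say whether equal replicate numbers mark a pair or a batch. With the number as a replicate block, all-gene counts were 2782 for BDL against sham, 742 for BDL+LIG against BDL and 5125 for BDL+LIG against sham.

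Log2 differences of BDL+LIG against sham turned below 0 under median-of-ratios scaling for Psmd1 (-0.38), Psmd11 (-0.33), Psmd2 (-0.41), Psmd3 (-0.15), Psmd7 (-0.43), Psmd9 (-0.39), Psme3 (-0.076), Psmf1 (-0.40), Ube2n (-0.006) and Cct2 (-0.20), and under the same scaling with voom for Psmd1 (-0.39), Psmd11 (-0.34), Psmd2 (-0.42), Psmd3 (-0.16), Psmd7 (-0.44), Psmd9 (-0.41), Psme3 (-0.079), Psmf1 (-0.43), Ube2n (-0.003) and Cct2 (-0.21). They did so with the length trend removed for Psmd1 (-0.36), Psmd2 (-0.39), Psme3 (-0.13), Psmf1 (-0.45), Ube2n (-0.082) and Cct2 (-0.033), and under quantile normalization for Psmf1 (-0.33). With 3 libraries a group, an exact permutation test of 1 gene cannot go below a two-sided p of 0.1.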

Other observations

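Neighbouring parts of protein quality control were described with fixed lists, chosen like the members with earlier results of these data known. Their counts stand beside those of all genes: 22.9% higher and 6.76% lower in BDL against sham, and 9.98% higher and 1.79% lower in BDL+LIG against BDL. In BDL against sham, 5 of 10 cytosolic heat shock genes rose and 0 fell. Under median-of-ratios scaling 2 rose and 1 fell, where 1511 of all genes were higher and 1435 lower. The 5 include Hspa1a, which reached 1 FPKM only in ligated libraries and so entered the test through the groups where it is high. Bag3, a partner of the HSP70 chaperones, was at 13.9, 13.2 and 13.0 FPKM in BDL+LIG, 15.4, 15 and 16.1 in BDL, and 8.78, 5.38 and 6.55 in sham (log2 difference 1.09 for BDL against sham, limma adjusted p = 0.000486). The inducible HSP70 gene Hspa1b was at 3.49, 4.20 and 3.86 in BDL+LIG, 4.41, 3.53 and 3.31 in BDL, and 2.01, 1.72 and 2.38 in sham (0.65, 0.00703). Its neighbour Hspa1a, near-identical in sequence so that reads may be split, was at 1.03, 0.381 and 1.22 in BDL+LIG, 0.929, 0.896 and 1.09 in BDL, and 0.108, 0.151 and 0.092 in sham; its call is not read as a result. Hspa8 and Dnajb1, chosen after their values were seen, complete the 5 (0.41 with 0.0249, and 0.50 with 0.0258). The calls of Hspa8 and Dnajb1 ended without any 1 of the BDL libraries (0.38 to 0.44 for Hspa8, 0.49 to 0.51 for Dnajb1). Median-of-ratios scaling left 0.15 for Hspa8 (adjusted p = 0.555) and 0.27 for Dnajb1 (0.277), and removal of the length trend 0.21 (0.22) and 0.26 (0.266). Hspa1b did not pass under quantile normalization (0.42, 0.0704). With ligustilide, in BDL+LIG against BDL, 0 of the 10 passed, with 1 at an unadjusted p under 0.05 and 0 by voom.

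Of 13 tested genes for ubiquitin and the enzymes that activate and conjugate it, 2 rose and 0 fell in BDL against sham, below the 22.9% of all genes higher. Ube2n, a conjugating enzyme with a part in signalling, was at 7.98, 11.2 and 9.46 FPKM in BDL+LIG, 10.4, 10.8 and 10.5 in BDL, and 7.08, 6.98 and 6.38 in sham (0.57, limma adjusted p = 0.00866, and 0.34 with 0.0519 under median-of-ratios scaling). Ube2d1, a conjugating enzyme of broad use, was at 6.67, 8.04 and 7.50 in BDL+LIG, 6.52, 8.14 and 6.25 in BDL, and 5.00, 3.57 and 5.55 in sham (0.49, 0.0442; past the threshold under 8 of 24 alternatives, and lost without any 1 library but sham 1 or sham 3, at 0.34 to 0.55). Between BDL+LIG and BDL 0 passed, with 1 at an unadjusted p under 0.05 and 0 by voom. Of 10 genes of the immunoproteasome and antigen processing, 0 rose and 2 fell in BDL against sham, where 6.76% of all genes were lower. Tap1, the peptide transporter, was at 8.55, 10.0 and 15.2 FPKM in BDL+LIG, 6.15, 7.26 and 8.51 in BDL, and 9.60, 12.2 and 13.7 in sham (-0.63, 0.0443). Tap1 lost the call without BDL+LIG 2, any 1 of the BDL libraries, sham 2 or sham 3 (-0.73 to -0.52). For BDL+LIG against BDL 0 of these 10 passed, with 1 at an unadjusted p under 0.05 and 0 by voom.

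The COP9 signalosome and the chaperonin TRiC, are complexes of many subunits outside the proteasome. In BDL against sham, where 29.7% of all genes passed, 1 of 10 COP9 genes did, Cops8, higher, at 12.9, 15.2 and 14.3 FPKM in BDL+LIG, 11.3, 14.4 and 12.0 in BDL, and 9.91, 9.24 and 6.56 in sham (0.52, limma adjusted p = 0.0327; past the threshold under 12 of 24 alternatives, and lost without BDL+LIG 3, BDL 2, BDL 3, sham 2 or sham 3, at 0.36 to 0.57). Ligustilide in ligated mice (BDL+LIG against BDL) gave 0 of the 10, with 0 at an unadjusted p under 0.05 and 0 by voom, and the median difference was 0.02. Of 8 TRiC genes 0 passed in BDL against sham, with 2 at an unadjusted p under 0.05 and 0 by voom; Cct2 was at 52.9, 57.6 and 53.9 in BDL+LIG, 54.1, 57.1 and 53.6 in BDL, and 45.8, 46.4 and 43.5 in sham (0.28, 0.0551). For BDL+LIG against BDL 0 of 8 passed, with 0 at an unadjusted p under 0.05 and 0 by voom, and the median was -0.03.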
